A study of Homo sapiens with 30 samples.

Results

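The expression of 9 human genes of carbonyl-reducing enzymes was measured in SW1783 cells, an established human astrocytoma line, kept with herbal extracts. The genes are AKR1A1, AKR1B1, AKR1B10, AKR1C1, AKR1C2, AKR1C3, CBR1, CBR3 and PTGR1, which make up 9 of the 60675 gene entries of the deposited count table. The genes were taken by symbol, and they had been proposed with their values at 500 against 20 µg/mL of each extract already known. That contrast is therefore given as a description, without p-values, and its calls are counted only beside the share of all genes called. Cells had been kept for 24 h with an ethanol extract of one of 4 decoctions, or with the DMSO vehicle, and bulk RNA was sequenced in 30 libraries. Each extract was given at 20, 100 and 500 µg/mL, with 2 libraries per concentration for Okbyeongpung-san, 3 for Soshiho-tang, 3 for Yijin-tang and 1 for Soyo-san, and 3 libraries came from vehicle cells. The sample labels give 0.1% DMSO for the vehicle and the series text gives 2%, which the sources do not settle. All libraries come from a single cell line with no genetic change named, and no label states that replicates came from separate cultures, so the p-values cover only library-to-library spread, which could be technical.

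The AKR1 enzymes are aldo-keto reductases, which use NADPH to reduce aldehydes and ketones to alcohols. CBR1 and CBR3 do the same chemistry as short-chain dehydrogenases, and PTGR1 reduces the double bond of enones, among them prostaglandin and lipid peroxidation products. Many of these genes are known in human cells as targets of NRF2, a transcription factor that the adaptor KEAP1 marks for degradation. When KEAP1 is blocked, NRF2 pairs with small MAF proteins and binds antioxidant response elements. In brain the enzymes are known for removing reactive aldehydes and for converting neurosteroids.

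Library totals lay between 23.9 and 33.1 M estimated counts. The astrocyte markers GFAP, S100B, AQP4 and ALDH1L1 reached at most 0.252 CPM in any library (counts scaled to library size with edgeR's TMM factors), and SLC1A2 at most 0.388 CPM, while SOX9 (52.6 to 92.9 CPM), GJA1 (172 to 220 CPM) and SLC1A3 (18.1 to 35.1 CPM) were present. Of the astrocyte markers examined, 5 of 8 were thus near 0, and the mesenchymal markers VIM (3750 to 5590 CPM), FN1 (3030 to 4890 CPM) and COL1A1 (1560 to 4040 CPM) were high. Library names put the vehicle in a set of its own, Okbyeongpung-san and Soyo-san in another, and Soshiho-tang and Yijin-tang in one more, so extract and library set cannot be told apart in any contrast with vehicle. Replicate 3 of Yijin-tang at 500 µg/mL stood apart from its group, with 10.6% of its counts mitochondrial, against 6.70% and 7.35% in replicates 1 and 2. Changes at 500 µg/mL of Yijin-tang are given with and without replicate 3. Vehicle libraries had 10.5% to 10.7% mitochondrial counts. The 27 libraries with extract had 5.68% to 10.6%, and all of them but this replicate lay at or below 9.59%. The part of this feature in the contrasts with vehicle was not tested. Replicates 2 and 3 of Okbyeongpung-san carry different batch names in their titles, BatchE and BatchD.

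The AKR1C sequences matter for reading the counts, because reads that fit several of these genes have to be divided among them. AKR1C1 (chr10:4963253-4983283, plus strand), AKR1C2 (chr10:4987400-5018031, minus strand) and AKR1C3 (chr10:5035354-5107686, plus strand) lie next to each other on GRCh38. Their coding sequences, of 969 bases each, differed at 19 bases between AKR1C1 and AKR1C2 (98.0% identity) and at 83 bases between AKR1C1 and AKR1C3 (91.4%). The first 60 coding bases show how alike they are, with capitals where a base differs from AKR1C1.
AKR1C1: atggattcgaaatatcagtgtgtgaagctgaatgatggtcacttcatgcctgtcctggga
AKR1C2: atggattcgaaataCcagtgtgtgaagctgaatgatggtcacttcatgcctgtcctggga
AKR1C3: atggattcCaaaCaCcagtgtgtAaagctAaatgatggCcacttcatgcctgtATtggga

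Coding bases 103 to 162 are the 60-base stretch in which AKR1C2 differs most from AKR1C1, and they are shown with the same use of capitals.
AKR1C1: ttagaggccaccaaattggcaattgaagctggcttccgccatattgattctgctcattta
AKR1C2: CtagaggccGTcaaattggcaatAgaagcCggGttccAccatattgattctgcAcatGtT
AKR1C3: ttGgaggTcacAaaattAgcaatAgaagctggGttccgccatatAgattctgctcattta

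AKR1C2 differed from AKR1C1 at 1 base in the first stretch and at 10 bases in the second, and AKR1C3 at 8 and 7 bases. The libraries were read in paired ends of 100 bases. Of all 100-base windows in each coding sequence, 20.7% of those of AKR1C1 occurred letter for letter in another annotated transcript, as did 26.4% for AKR1C2, 9.77% for AKR1C3 and 3.53% for AKR1B10. No window of AKR1A1, AKR1B1, CBR1, CBR3 or PTGR1 did. The estimated counts of AKR1C1, AKR1C2, AKR1C3 and CBR3 were not whole numbers in any of the 30 libraries, nor were those of CBR1 in 27 libraries. Values of single AKR1C genes are thus uncertain in how reads were split among them, and their sum is given beside them. The counts of CBR1 and CBR3 also held divided reads, although no window of their coding sequences was shared. Which other entries took part in that division was not examined.

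The regions before the RefSeq start sites of AKR1C1 and AKR1C2 were alike as well. These start sites lie inside the gene spans given above, and so does the whole AKR1C2 stretch. RefSeq promoters (GRCh38.p14) matched 7 of the 9 genes, all but AKR1B10 and CBR3. Over 246 aligned bases before the RefSeq start sites, AKR1C1 and AKR1C2 matched at 245 (99.6%). An 80-base piece that no annotated exon overlaps is shown, read in the direction of each gene (chr10:4963169-4963248, plus strand, for AKR1C1; chr10:5004028-5004107, minus strand, for AKR1C2), and it had no difference.
AKR1C1: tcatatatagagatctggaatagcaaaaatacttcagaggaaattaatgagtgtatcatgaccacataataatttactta
AKR1C2: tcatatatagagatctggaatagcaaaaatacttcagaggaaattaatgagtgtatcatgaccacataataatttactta

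The core of the antioxidant response element, TGACNNNGC with N for any base, was searched on both strands of the RefSeq windows of 300 bases. It occurred for 1 of the 7 matched genes, CBR1, against 13.3% of all 35116 promoters. The first count is per gene and the share per promoter, as AKR1B1 and AKR1C3 had more than 1 promoter window. The 60 bases around it (chr21:36069839-36069898, plus strand) are shown with the match in capitals, which reads on the minus strand.
CBR1: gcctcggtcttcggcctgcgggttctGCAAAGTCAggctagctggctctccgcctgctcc

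All 9 genes passed the filter on low counts in every fit, so none was too low to test. The lowest single count was 108, for AKR1B10. Over the 30 libraries, AKR1B10 ranged from 3.93 to 11.2 CPM, AKR1C2 from 5.26 to 14.2, CBR3 from 5.93 to 15.0, AKR1C3 from 6.17 to 19.9, and AKR1C1 from 17.2 to 75.4. The ranges of AKR1A1 (44.6 to 63.2 CPM), PTGR1 (69.1 to 108 CPM), CBR1 (71.2 to 128 CPM) and AKR1B1 (146 to 271 CPM) were narrower in proportion. CPM are not scaled to gene length, so these levels are compared between libraries and not between genes. The close relative AKR1C4 stayed at or below 0.0432 CPM and AKR1D1 was at 0, and neither was tested.

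**Figure D1:**
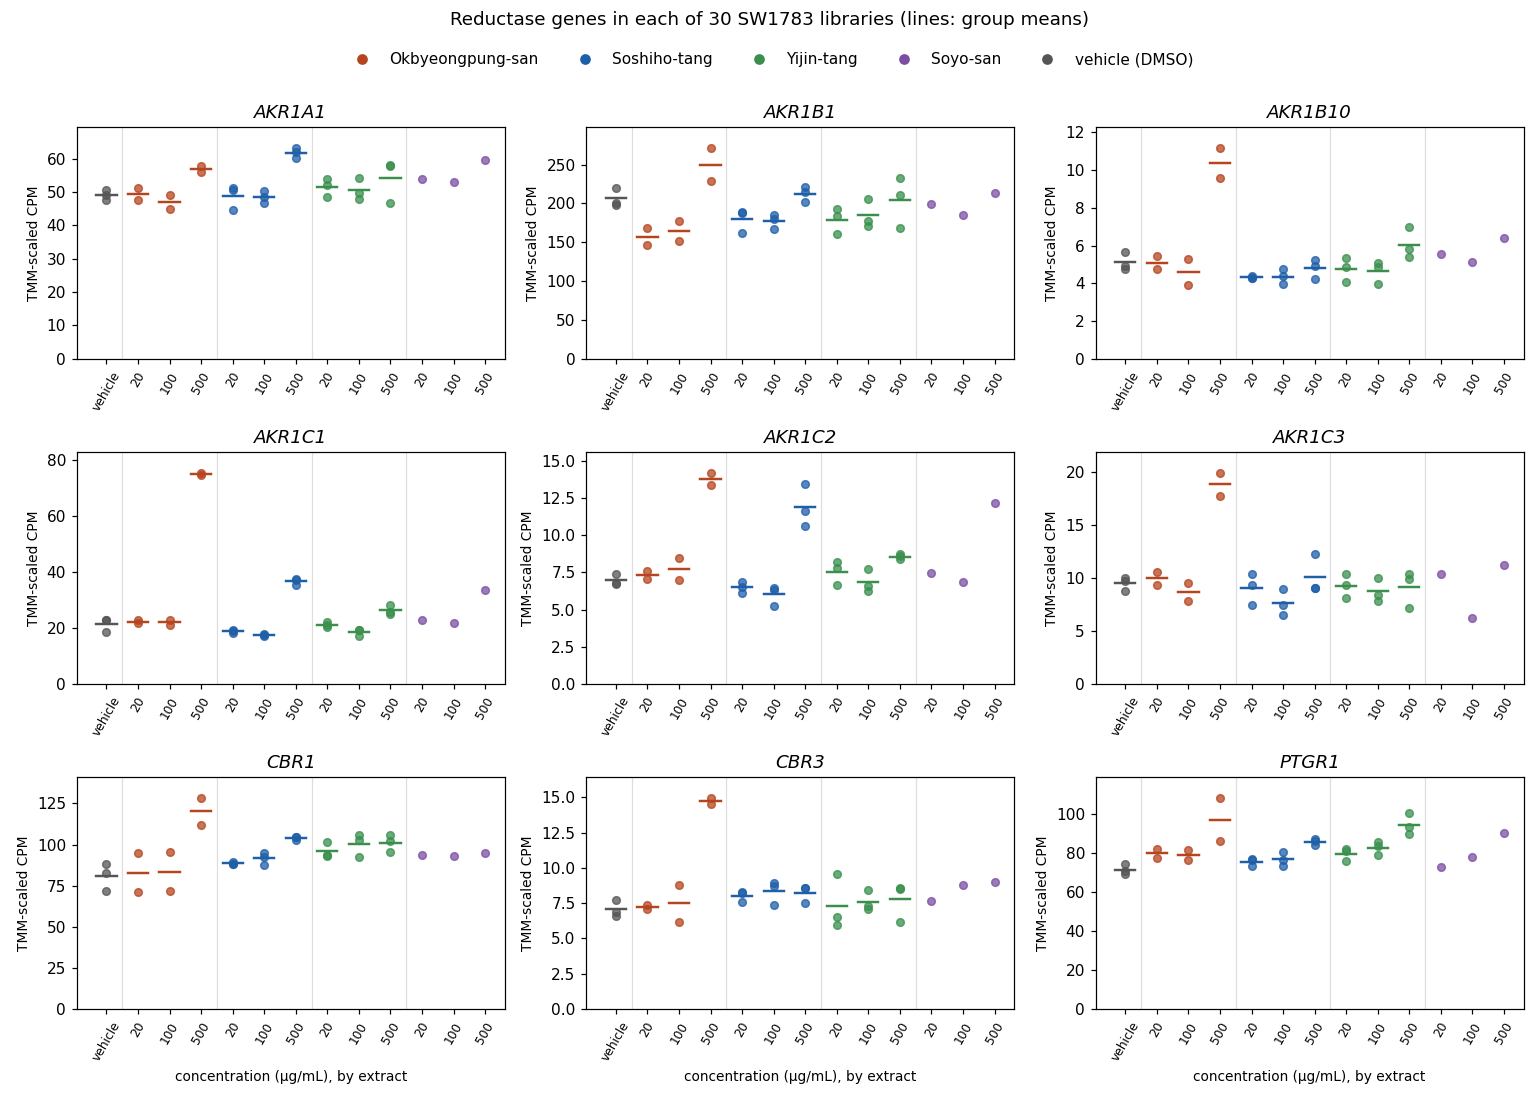
TMM-scaled CPM of the 9 genes (vertical axes, linear, from 0) in each of 30 libraries, by extract and concentration (horizontal axes, µg/mL, vehicle at the left); points are libraries and short lines group means. AKR1C1 stands at 74.7 and 75.4 CPM in the Okbyeongpung-san libraries at 500 µg/mL, above the other 28 libraries.

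AKR1C1, a reductase that inactivates progesterone, had the widest range among the 9 genes in proportion to its level. In Okbyeongpung-san libraries it stood at 74.7 and 75.4 CPM at 500 µg/mL, against 21.6 and 22.8 CPM at 20 µg/mL, a 3.38-fold ratio of means and a log2 fold change of 1.75 ± 0.10 (SE). Both libraries at 500 µg/mL lay far above both at 20 µg/mL. In Soshiho-tang libraries it stood at 37.3, 37.5 and 35.5 CPM at 500 µg/mL, against 19.0, 18.0 and 19.2 CPM at 20 µg/mL (log2 fold change 0.97 ± 0.07). These groups did not overlap either. In Yijin-tang libraries it stood at 25.0, 28.0 and 25.7 CPM at 500 µg/mL, against 20.9, 20.3 and 21.9 CPM at 20 µg/mL (log2 fold change 0.31 ± 0.07, and 0.33 ± 0.08 without replicate 3 at 500 µg/mL). The 3 Yijin-tang libraries at 500 µg/mL were the higher ones again, by a smaller margin. In bulk RNA, more cells with a transcript and more transcript per cell cannot be told apart.

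AKR1C2, which inactivates dihydrotestosterone, moved by similar amounts with Okbyeongpung-san and Soshiho-tang. It stood at 13.4 and 14.2 CPM in Okbyeongpung-san libraries at 500 µg/mL, against 7.06 and 7.57 CPM at 20 µg/mL (log2 fold change 0.91 ± 0.12). In Soshiho-tang libraries it stood at 11.7, 13.5 and 10.6 CPM at 500 µg/mL, against 6.49, 6.12 and 6.85 CPM at 20 µg/mL (log2 fold change 0.88 ± 0.10). The groups did not overlap in either extract. Yijin-tang libraries held 8.72, 8.60 and 8.37 CPM at 500 µg/mL, against 8.19, 6.63 and 7.80 CPM at 20 µg/mL (log2 fold change 0.19 ± 0.10, and 0.21 ± 0.12 without replicate 3 at 500 µg/mL), and the nearest libraries of these groups lay close together.

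AKR1C3, which forms testosterone and also makes prostaglandin F, differed between concentrations of Okbyeongpung-san. It stood at 17.8 and 19.9 CPM at 500 µg/mL, against 10.6 and 9.34 CPM at 20 µg/mL (log2 fold change 0.92 ± 0.12). With Soshiho-tang it stood at 9.07, 9.06 and 12.3 CPM at 500 µg/mL, against 9.34, 10.3 and 7.45 CPM at 20 µg/mL (0.15 ± 0.15), and with Yijin-tang at 10.4, 9.88 and 7.19 CPM, against 9.32, 8.07 and 10.4 CPM (-0.01 ± 0.15). Without replicate 3 at 500 µg/mL the change with Yijin-tang was 0.14 ± 0.15. The libraries of both concentrations overlapped in these extracts.

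The sum of AKR1C1, AKR1C2, AKR1C3 and the barely detected AKR1C4 does not depend on how reads were split among them. It was 106 and 109 CPM in Okbyeongpung-san libraries at 500 µg/mL, against 39.2 and 39.7 CPM at 20 µg/mL (log2 fold change 1.44 ± 0.09). In Soshiho-tang libraries it was 58.0, 60.1 and 58.4 CPM at 500 µg/mL, against 34.8, 34.5 and 33.5 CPM at 20 µg/mL (0.78 ± 0.06). In Yijin-tang libraries it was 44.1, 46.5 and 41.2 CPM at 500 µg/mL, against 38.4, 35.0 and 40.2 CPM at 20 µg/mL (0.21 ± 0.06, and 0.26 ± 0.07 without replicate 3 at 500 µg/mL). AKR1C1 made up 68.9% to 70.6% of that sum with Okbyeongpung-san at 500 µg/mL, against 55.1% to 57.4% at 20 µg/mL. Its share was 60.8% to 64.3% with Soshiho-tang at 500 µg/mL, against 52.3% to 57.3% at 20 µg/mL, and 53.6% to 58.2% in vehicle libraries.

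**Figure D2:**
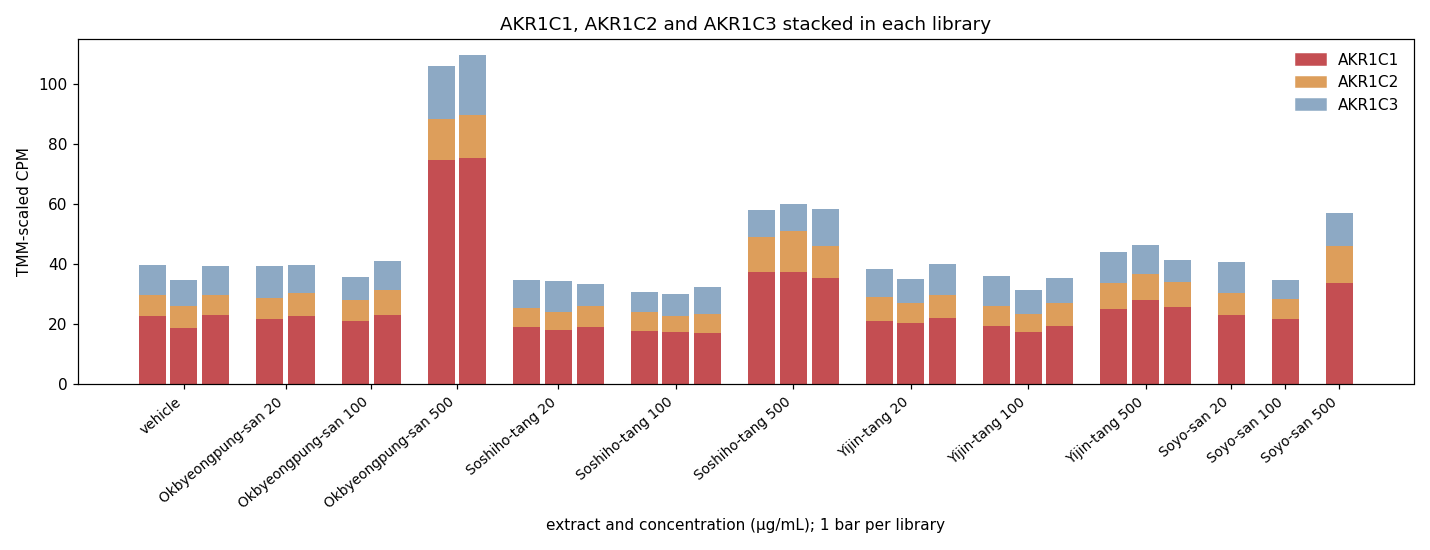
AKR1C1, AKR1C2 and AKR1C3 stacked in TMM-scaled CPM (vertical axis, from 0), 1 bar per library, grouped by extract and concentration in µg/mL (horizontal axis). The Okbyeongpung-san bars at 500 µg/mL reach 106 and 109 CPM, and AKR1C1 makes up 70.6% and 68.9% of them.

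The aldose reductase AKR1B1 (chr7:134442350-134459284), which turns glucose into sorbitol, and its neighbour AKR1B10 (chr7:134527592-134541408), which reduces retinal and other aldehydes, both stood higher at 500 than at 20 µg/mL of Okbyeongpung-san. AKR1B10 stood at 9.59 and 11.2 CPM at 500 µg/mL, against 4.76 and 5.44 CPM at 20 µg/mL (log2 fold change 1.02 ± 0.16). AKR1B1 stood at 229 and 271 CPM at 500 µg/mL, against 146 and 168 CPM at 20 µg/mL (0.66 ± 0.11). Neither gene's libraries overlapped between the concentrations. With Soshiho-tang the log2 fold changes were 0.24 ± 0.10 for AKR1B1, whose libraries did not overlap, and 0.15 ± 0.13 for AKR1B10, whose libraries did. With Yijin-tang AKR1B10 stood at 6.96, 5.81 and 5.40 CPM at 500 µg/mL, against 4.88, 4.09 and 5.36 CPM at 20 µg/mL (0.35 ± 0.12, and 0.43 ± 0.13 without replicate 3 at 500 µg/mL). The change of AKR1B1 with Yijin-tang was 0.19 ± 0.10, and 0.31 ± 0.09 without replicate 3 at 500 µg/mL, whose 168 CPM lay below the 233 and 211 CPM of replicates 1 and 2.

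AKR1A1 (chr1:45550543-45570049), a broadly expressed aldehyde reductase, stood higher at 500 than at 20 µg/mL of Soshiho-tang. With Soshiho-tang it stood at 61.9, 63.2 and 60.2 CPM at 500 µg/mL, against 51.1, 50.6 and 44.6 CPM at 20 µg/mL (log2 fold change 0.34 ± 0.07), and the groups did not overlap. The changes were 0.20 ± 0.08 with Okbyeongpung-san and 0.07 ± 0.07 with Yijin-tang (0.17 ± 0.06 without replicate 3).

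The carbonyl reductases CBR1 (chr21:36069941-36073166) and CBR3 (chr21:36134912-36146566) reduce quinones, prostaglandins and anthracycline drugs, with broader activity known for CBR1. CBR3 stood at 14.5 and 15.0 CPM in Okbyeongpung-san libraries at 500 µg/mL, against 7.06 and 7.38 CPM at 20 µg/mL (log2 fold change 1.02 ± 0.15). Its values with Soshiho-tang were 7.48, 8.59 and 8.60 CPM at 500 µg/mL, against 8.19, 8.28 and 7.56 CPM at 20 µg/mL (0.03 ± 0.14), and the change with Yijin-tang was 0.09 ± 0.14 (0.23 ± 0.14 without replicate 3 at 500 µg/mL, and -0.036 without replicate 1 at 20 µg/mL). CBR3 thus stood apart at 500 µg/mL of Okbyeongpung-san and overlapped between concentrations of the other extracts. CBR1 stood at 103, 105 and 105 CPM with Soshiho-tang at 500 µg/mL, against 89.2, 88.3 and 88.0 CPM at 20 µg/mL (0.23 ± 0.06). With Okbyeongpung-san it stood at 112 and 128 CPM at 500 µg/mL, against 71.2 and 94.6 CPM at 20 µg/mL (0.53 ± 0.17), and with Yijin-tang the change was 0.08 ± 0.06 (0.12 ± 0.07 without replicate 3). Both genes lie within genes of the opposite strand, CBR1 in SETD4 and CBR3 in CBR3-AS1, and the strand setting of the counting is not given in the sources used here.

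PTGR1 (chr9:111549722-111599893), which inactivates leukotrienes and reduces reactive enals, had small changes. The log2 fold change was 0.28 ± 0.11 with Okbyeongpung-san, 0.18 ± 0.05 with Soshiho-tang and 0.25 ± 0.05 with Yijin-tang (0.20 ± 0.05 without replicate 3). In Yijin-tang libraries it stood at 90.0, 93.2 and 101 CPM at 500 µg/mL, against 81.1, 75.8 and 82.1 CPM at 20 µg/mL. The libraries at 500 µg/mL were the higher ones in each of these 3 extracts. PTGR1 overlaps ZNF483 on the opposite strand.

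**Figure D3:**
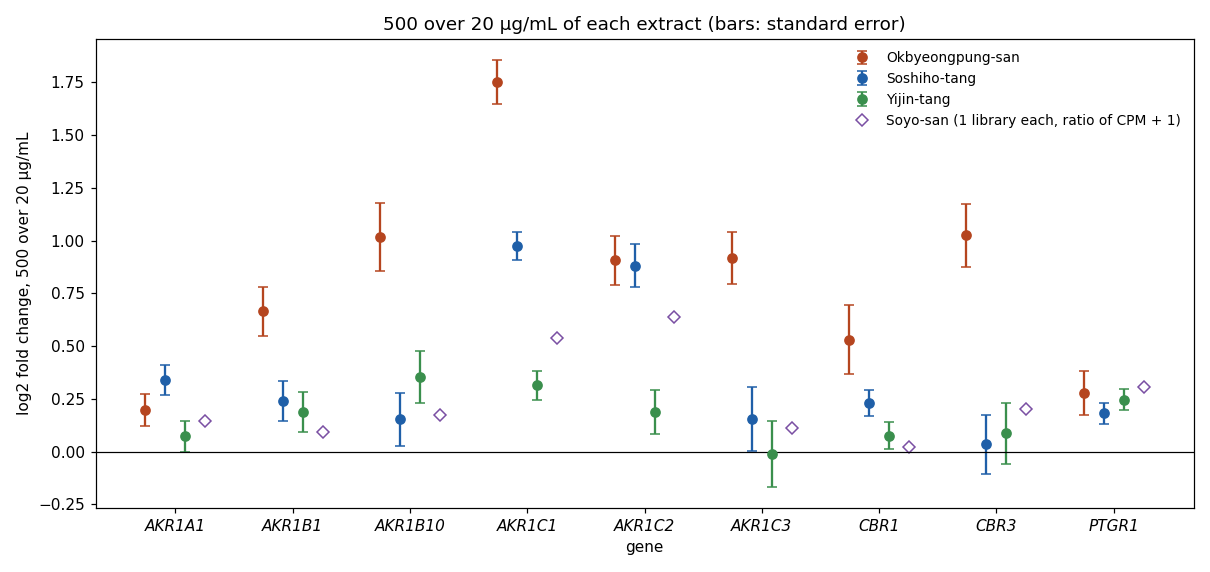
Log2 fold change of 500 over 20 µg/mL (vertical axis) for each gene (horizontal axis) with Okbyeongpung-san, Soshiho-tang and Yijin-tang; bars are standard errors, and open diamonds are Soyo-san ratios from 1 library each. AKR1C1 with Okbyeongpung-san, at 1.75 ± 0.10, is the highest point, and AKR1C3 with Yijin-tang, at -0.01 ± 0.15, the lowest.

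Counted with edgeR's quasi-likelihood test over all genes at an adjusted p of 0.05, 6 of the 9 genes were called higher at 500 than at 20 µg/mL of Okbyeongpung-san, where 5.21% of all 16643 genes tested were. These were AKR1B1, AKR1B10, AKR1C1, AKR1C2, AKR1C3 and CBR3, and the median log2 fold change of the 9 genes was 0.91, against 0.0025 over all genes. With Soshiho-tang 5 were called higher, where 14.6% of 16872 genes were, namely AKR1A1, AKR1C1, AKR1C2, CBR1 and PTGR1 (median 0.23, against 0.0073). With Yijin-tang 2 were, AKR1C1 and PTGR1, where 2.7% of all genes were (median 0.19, against 0.00066). With each of these extracts 0 members were called lower, where 5.1%, 14.2% and 2.94% of all genes were. All libraries at 500 µg/mL lay above all at 20 µg/mL for 9 members with Okbyeongpung-san, 6 with Soshiho-tang and 4 with Yijin-tang, where 25.3%, 22.3% and 11.1% of all genes did. Because the genes were proposed with these contrasts known, nothing is read from the counts. Without Okbyeongpung-san replicate 2 at 20 µg/mL, AKR1B1 (0.57) was not among those called, nor was AKR1C1 with Yijin-tang without replicate 2 at 500 µg/mL (0.27) or replicate 2 at 20 µg/mL (0.29). Without replicate 3 at 500 µg/mL the count with Yijin-tang was 3, AKR1B1 being added.

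Within the batches of Okbyeongpung-san most ratios were close to each other. The log2 ratio of 500 over 20 µg/mL for AKR1C1 was 1.73 in BatchD and 1.79 in BatchE, for AKR1B10 1.04 and 1.01, for CBR3 1.02 and 1.04, and for AKR1C2 0.91 and 0.92. AKR1B1 was at 0.69 in BatchD and 0.64 in BatchE. AKR1C3 differed more, at 1.09 in BatchD and 0.75 in BatchE, as did PTGR1, at 0.067 and 0.48. CBR1, at 0.44 in BatchD and 0.66 in BatchE, and AKR1A1, at 0.13 and 0.28, also differed more. With the replicate number as a block the count of members called was 7, CBR1 (0.54 ± 0.14) being added. For Okbyeongpung-san this number goes with the batch. The same fit also held the vehicle libraries, all of BatchE, under their own replicate numbers, so the block is not purely the batch.

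Some other features of the libraries also differed between concentrations. Mitochondrial counts were 5.68% and 6.81% with Okbyeongpung-san at 500 µg/mL, against 8.11% and 8.36% at 20 µg/mL, and these groups did not overlap. They overlapped with Soshiho-tang, at 6.93% to 7.79% at 500 µg/mL, against 6.37% to 9.03% at 20 µg/mL. The summed level of 5 epithelial markers was 78.0 to 80.8 CPM with Okbyeongpung-san at 500 µg/mL, against 143 to 153 CPM at 20 µg/mL. It was 58.7 to 63.7 CPM with Soshiho-tang at 500 µg/mL, against 151 to 165 CPM at 20 µg/mL, and 117 to 118 CPM with Yijin-tang at 500 µg/mL, against 149 to 173 CPM at 20 µg/mL. KRT18 (49.1 to 153 CPM over all libraries) made up most of it, while EPCAM stayed at or below 0.205 CPM. Sums of 5 mesenchymal markers were 14200 to 14500 CPM with Okbyeongpung-san at 500 µg/mL, against 17000 to 17100 CPM at 20 µg/mL, and 11900 to 12700 CPM with Soshiho-tang at 500 µg/mL, against 16100 to 17300 CPM at 20 µg/mL. With Soshiho-tang, sums of 8 astrocyte markers were 247 to 262 CPM at 500 µg/mL, against 307 to 308 CPM at 20 µg/mL, those of 5 neuronal markers 102 to 109 CPM, against 137 to 142 CPM, and those of 5 leukocyte markers 4.41 to 5.08 CPM, against 12.6 to 13.3 CPM. The neuronal and leukocyte sums did not overlap in the other 2 extracts either, with leukocyte markers at 6.52 to 6.70 CPM with Okbyeongpung-san at 500 µg/mL, against 10.1 to 12.7 CPM at 20 µg/mL. The sum of 4 endothelial markers was 38.4 to 40.4 CPM with Soshiho-tang at 500 µg/mL, against 35.8 to 37.4 CPM at 20 µg/mL, and the hepatocyte sums overlapped in these 3 extracts. The part of these features in the results was not tested.

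At the middle concentration no member was called. In the contrast of 100 with 20 µg/mL, which shares the libraries at 20 µg/mL with the contrast above, edgeR called 0 of the 9 genes with Okbyeongpung-san, Soshiho-tang or Yijin-tang (adjusted p = 1 for each gene). The share of all genes called either way was 0%, 0.0711% and 0.00593%, and DESeq2 called 0 members as well. At an unadjusted p of 0.05, 0, 0 and 1 of the 9 passed. The one was AKR1C1 with Yijin-tang, at 19.3, 17.3 and 19.3 CPM at 100 µg/mL, against 20.9, 20.3 and 21.9 CPM at 20 µg/mL (log2 fold change -0.18 ± 0.07). AKR1C1 with Okbyeongpung-san averaged 22.0 CPM at 100 µg/mL and 22.2 CPM at 20 µg/mL (log2 fold change -0.01 ± 0.10), and the log2 fold changes of all members in the 3 contrasts lay between -0.26 and 0.08. The AKR1C sum was -0.14 ± 0.06 with Soshiho-tang and -0.15 ± 0.06 with Yijin-tang. Its unadjusted p in edgeR was 0.0388 and 0.0324, and it was not called. With Okbyeongpung-san the sum was -0.04 ± 0.09.

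Set against vehicle, 4 to 8 of the 9 members were called higher at 500 µg/mL. These contrasts share the libraries at 500 µg/mL with the contrast that chose the genes, so their p-values are not independent of that choice. With Okbyeongpung-san 8 of 9 were called higher, where 13.3% of all genes were. AKR1C1 averaged 75.1 ± 0.43 CPM (SD, n = 2), against 21.5 ± 2.43 CPM in vehicle libraries (n = 3), a log2 fold change of 1.82 ± 0.09 (adjusted p = 3.62e-06). CBR3 (1.08 ± 0.14, adjusted p = 5.47e-04), AKR1B10 (1.03 ± 0.15, adjusted p = 9.83e-04), AKR1C3 (1.00 ± 0.11, adjusted p = 2.93e-04) and AKR1C2 (1.00 ± 0.11, adjusted p = 2.30e-04) followed. The AKR1C sum was at 1.52 ± 0.08. CBR1 (0.59 ± 0.15), PTGR1 (0.45 ± 0.10) and AKR1A1 (0.23 ± 0.07) passed by less, with adjusted p = 0.018, 0.00753 and 0.0404. AKR1B1 did not pass (0.29 ± 0.10, adjusted p = 0.0654). The call of AKR1A1 was lost without any 1 of the 5 libraries (0.19 to 0.24, adjusted p = 0.0756 to 0.177). That of CBR1 was lost without vehicle replicate 2 (0.59, adjusted p = 0.0556), vehicle replicate 3 (0.50, adjusted p = 0.0716) or Okbyeongpung-san replicate 3 (0.48, adjusted p = 0.104), and that of PTGR1 without Okbyeongpung-san replicate 2 (0.27, adjusted p = 0.0655).

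With Soshiho-tang at 500 µg/mL 5 of 9 members were called higher than in vehicle, where 22.8% of all genes were. AKR1C1 and AKR1C2 both had a log2 fold change of 0.78 (SE 0.07 and 0.10, adjusted p = 7.38e-09 and 2.74e-06). CBR1 (0.36 ± 0.06), AKR1A1 (0.33 ± 0.07) and PTGR1 (0.26 ± 0.05) were the others, with adjusted p = 7.08e-05, 8.01e-04 and 2.61e-04. The AKR1C sum was at 0.63 ± 0.06. With Yijin-tang 4 of 9 were called higher, where 16% of all genes were. PTGR1 had the highest change (0.40 ± 0.05, adjusted p = 5.89e-06), at 94.6 ± 5.48 CPM with Yijin-tang, against 71.5 ± 2.73 CPM in vehicle libraries (SD, n = 3 each). CBR1 (0.32 ± 0.06), AKR1C2 (0.30 ± 0.11) and AKR1C1 (0.29 ± 0.07) followed, with adjusted p = 5.03e-04, 0.0354 and 0.00307. The AKR1C sum was at 0.21 ± 0.06 with Yijin-tang, and at 0.26 ± 0.07 without replicate 3. Without Yijin-tang replicate 3 the 4 kept their calls (0.30 to 0.37) and AKR1A1 joined them (0.24 ± 0.06, adjusted p = 0.00714). AKR1C2 missed the threshold without vehicle replicate 1 or 3 or Yijin-tang replicate 1 or 2 (0.28 to 0.30, adjusted p = 0.0739 to 0.104). Besides the libraries at 500 µg/mL that they share with the contrast that chose the genes, all these contrasts share the vehicle libraries.

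At 20 µg/mL few members were called against vehicle. Libraries at 20 µg/mL also entered the contrast that chose the genes, so the p-values here are not independent of that choice. Okbyeongpung-san had 0 members called by edgeR, where 1.18% of all genes were called higher and 1.06% lower. AKR1B1 passed an unadjusted p of 0.05 (146 and 168 CPM, against 198 to 220 CPM in vehicle; log2 fold change -0.37 ± 0.11, adjusted p = 0.0832), and DESeq2 called it (adjusted p = 0.0175). Soshiho-tang had AKR1C1 called lower (-0.20 ± 0.07, adjusted p = 0.0484), where 10.5% of all genes were. Its libraries overlapped those of vehicle, and the call was lost in DESeq2 (adjusted p = 0.065) and without vehicle replicate 1 or 3 or any Soshiho-tang library (-0.21 to -0.15, adjusted p = 0.0718 to 0.216). The AKR1C sum with Soshiho-tang was at -0.15 ± 0.06 and was not called. Yijin-tang had CBR1 (0.25 ± 0.06, adjusted p = 0.00836) and PTGR1 (0.16 ± 0.05, adjusted p = 0.0357) called higher, where 10.6% of all genes were. Both calls were lost without vehicle replicate 3 or Yijin-tang replicate 3 (CBR1 0.17 and 0.21, adjusted p = 0.0706 and 0.0533; PTGR1 0.13 in each case, adjusted p = 0.134 and 0.131), and that of PTGR1 also without vehicle replicate 2 or Yijin-tang replicate 1 (0.15 and 0.14, adjusted p = 0.085 and 0.113).

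Soshiho-tang and Yijin-tang, which belong to the same library set, were compared at equal concentration. The comparisons at 500 µg/mL and at the lowest concentration use libraries that also entered the contrast with which the genes were chosen. Neither comparison is therefore independent of that choice. At 500 µg/mL AKR1C1 averaged 36.8 ± 1.12 CPM in Soshiho-tang libraries, against 26.2 ± 1.58 CPM in Yijin-tang libraries (SD, n = 3 each), a log2 fold change of 0.49 ± 0.07 (adjusted p = 5.17e-06). AKR1C2 averaged 11.9 ± 1.44 CPM in Soshiho-tang libraries, against 8.57 ± 0.176 CPM in Yijin-tang libraries (0.48 ± 0.10, adjusted p = 7.72e-04). These 2 of 9 members were called higher with Soshiho-tang, where 12.5% of all genes were. AKR1B10 (-0.34 ± 0.12, adjusted p = 0.0432) and PTGR1 (-0.14 ± 0.05, adjusted p = 0.0437) were called lower, where 12.8% of all genes were. AKR1A1 did not pass (0.19 ± 0.07, adjusted p = 0.0557). The AKR1C sum was higher with Soshiho-tang by 0.42 ± 0.06, and by 0.38 ± 0.07 without Yijin-tang replicate 3.

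Leaving out Yijin-tang replicate 3 kept AKR1C1 (0.47 ± 0.07, adjusted p = 4.38e-05), AKR1C2 (0.46 ± 0.11, adjusted p = 0.00381) and AKR1B10 (-0.42 ± 0.13, adjusted p = 0.0226), and PTGR1 lost its call (-0.09 ± 0.05, adjusted p = 0.218). PTGR1 lost it also without Soshiho-tang replicate 1, 2 or 3 or Yijin-tang replicate 2 (-0.15 to -0.13, adjusted p = 0.0655 to 0.136). AKR1B10 lost its call without Soshiho-tang replicate 1 or 3 or Yijin-tang replicate 1 or 2 (-0.37 to -0.22, adjusted p = 0.0586 to 0.245). AKR1A1 was called without Yijin-tang replicate 1 (0.25, adjusted p = 0.0253) or 2 (0.24, adjusted p = 0.0384). At 100 and at 20 µg/mL edgeR and DESeq2 called 0 members, where 0.753% and 0.13% of all genes were called by edgeR. At an unadjusted p of 0.05, 0 passed at 100 µg/mL and 1, AKR1C1, at 20 µg/mL (-0.17 ± 0.07), where its 19.0, 18.0 and 19.2 CPM with Soshiho-tang lay below the 20.9, 20.3 and 21.9 CPM with Yijin-tang. The AKR1C sum was at -0.14 ± 0.06 at each of these concentrations. Its unadjusted p in edgeR was 0.0422 at 100 µg/mL and 0.0341 at 20 µg/mL, and it was not called.

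**Figure D4:**
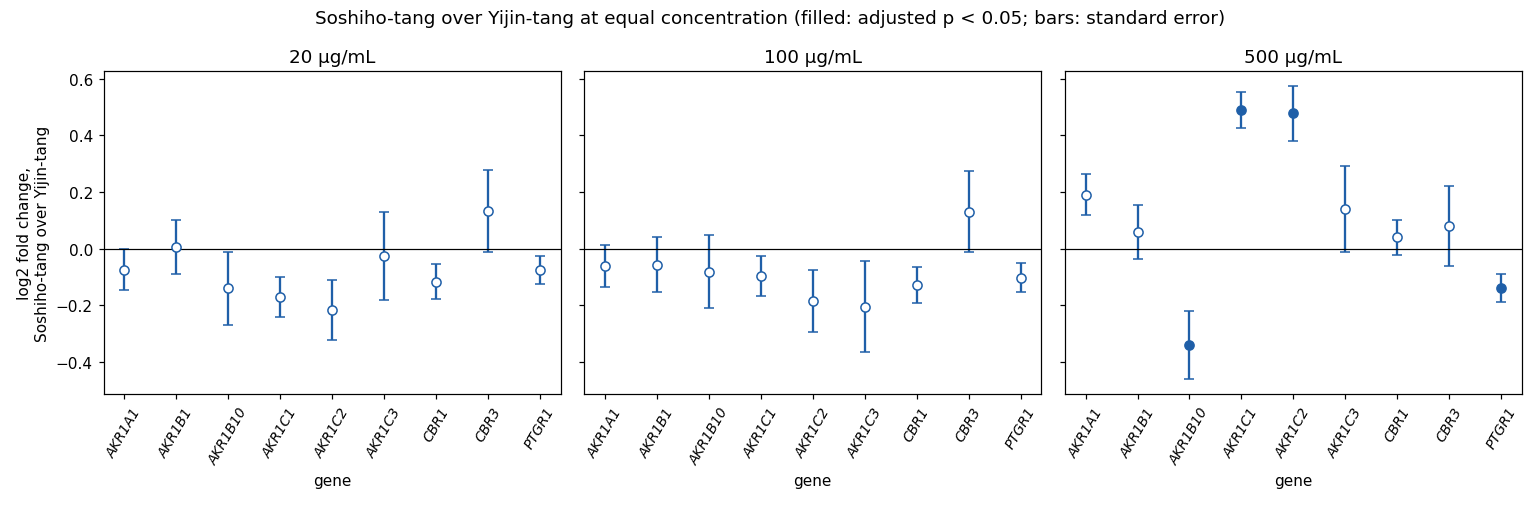
Log2 fold change of Soshiho-tang over Yijin-tang (vertical axis) for each gene (horizontal axis) at 20, 100 and 500 µg/mL; bars are standard errors, and filled points passed an adjusted p of 0.05. Filled points occur at 500 µg/mL, where AKR1C1 and AKR1C2 lie at 0.49 and 0.48 and AKR1B10 at -0.34.

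The change between 500 and 20 µg/mL was itself set side by side between extracts, as a difference of the changes. Both changes belong to the contrast that chose the genes, so the differences are a description and no p-value is given. The change with Soshiho-tang exceeded that with Yijin-tang by 0.66 ± 0.10 for AKR1C1 and 0.69 ± 0.14 for AKR1C2, and these were the 2 members called higher, where 6.63% of all genes were. Without Yijin-tang replicate 3 at 500 µg/mL the differences were 0.64 ± 0.10 and 0.68 ± 0.15. That of AKR1A1 was 0.27 ± 0.10, and 0.17 ± 0.08 without the same replicate. The change with Okbyeongpung-san exceeded that with Soshiho-tang by 0.99 ± 0.23 for CBR3, 0.87 ± 0.20 for AKR1B10, 0.78 ± 0.10 for AKR1C1 and 0.77 ± 0.23 for AKR1C3, the 4 members called higher, where 4.25% of all genes were. For CBR1 the difference was 0.30 ± 0.15 and for AKR1C2 0.03 ± 0.16. Leaving out 1 library at a time gave 0.66 to 0.92 for AKR1C3, which was then called in 2 of 10 cases, and 0.75 to 0.98 for AKR1B10. These extracts belong to different library sets, so extract and set cannot be told apart.

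Soyo-san has 1 library per concentration, so its values have no replicate check and no test. The log2 ratio of 500 over 20 µg/mL, taken on CPM + 1, was above 0 for all 9 members, where 50.5% of all genes were, and its median was 0.17, against 0.0019 over 16872 genes. AKR1C2 stood at 12.2 CPM at 500 µg/mL (95% Wilson interval 10.9 to 13.5), against 7.48 CPM at 20 µg/mL (6.54 to 8.55), a log2 ratio of 0.64. AKR1C1 stood at 33.7 CPM at 500 µg/mL (31.6 to 35.9), against 22.9 CPM at 20 µg/mL (21.2 to 24.8), a ratio of 0.54. PTGR1 stood at 90.5 CPM (87.0 to 94.1), against 72.9 CPM (69.9 to 76.2), a ratio of 0.31. The intervals, which cover counting error only, did not overlap for these 3 genes, nor for AKR1A1 (59.6 CPM at 500 µg/mL, against 53.8 CPM at 20 µg/mL) and AKR1B1 (214 against 199.8 CPM). The ratios of the 6 members other than AKR1C1, AKR1C2 and PTGR1 lay between 0.02 and 0.20. At 100 µg/mL AKR1C3 stood at 6.17 CPM, below its 11.2 CPM at 500 µg/mL and 10.3 CPM at 20 µg/mL. The AKR1C sum stood at 57.1 CPM at 500 µg/mL, against 40.7 CPM at 20 µg/mL, a log2 ratio of 0.48.

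Related genes were counted from lists chosen with earlier results of these data known. Their counts stand against the shares of all genes called higher and lower, 5.21% and 5.1% with Okbyeongpung-san, 14.6% and 14.2% with Soshiho-tang, and 2.7% and 2.94% with Yijin-tang. Among the 9 tested regulators of the NRF2 pathway, 4 were called higher and 0 lower at 500 than at 20 µg/mL of Okbyeongpung-san. SQSTM1, an autophagy receptor that binds KEAP1, averaged 1854 ± 18.1 CPM at 500 µg/mL, against 526 ± 43.4 CPM at 20 µg/mL (SD, n = 2 each; log2 fold change 1.81 ± 0.08). The small MAF genes MAFF (1.05 ± 0.15), MAFG (0.93 ± 0.08) and MAFK (0.74 ± 0.10) were the other 3. With Soshiho-tang 4 were called higher, SQSTM1 (1.53 ± 0.05), MAFG (0.64 ± 0.07), MAFF (0.46 ± 0.07) and BACH1, a repressor that competes with NRF2 (0.33 ± 0.08). With Yijin-tang 0 of the 9 were called.

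Of 16 genes listed under NADPH supply, some of them from neighbouring steps, 4 were called higher and 1 lower with Okbyeongpung-san. The malic enzyme ME1 (1.01 ± 0.09) and the pentose phosphate enzymes PGD (0.66 ± 0.08) and TALDO1 (0.59 ± 0.10) were among the higher ones, and IDH2, a mitochondrial isocitrate dehydrogenase, was lower (-0.38 ± 0.11). With Soshiho-tang 7 were called higher and 1 lower, led by MTHFD2 of folate metabolism (0.69 ± 0.08), with TALDO1 at 0.33 ± 0.05 and IDH2 at -0.39 ± 0.05. With Yijin-tang 0 were called.

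Among 29 tested genes of other carbonyl, quinone and enone reductases, 4 were called higher and 2 lower with Okbyeongpung-san, 11 and 3 with Soshiho-tang, and 4 and 1 with Yijin-tang. The quinone reductase NQO1, a standard NRF2 target, was higher in each, by 0.59 ± 0.09, 0.62 ± 0.06 and 0.33 ± 0.06. It averaged 248 ± 16.5 CPM at 500 µg/mL of Okbyeongpung-san and 164 ± 9.81 CPM at 20 µg/mL (n = 2 each). Its relative NQO2 was called with Okbyeongpung-san (0.65 ± 0.08). The retinol dehydrogenase RDH10 was lower with Soshiho-tang (-0.60 ± 0.06), and PTGR2, another prostaglandin reductase, was higher with Yijin-tang (0.39 ± 0.07).

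Of 8 other aldo-keto reductases tested, 1 was called with Okbyeongpung-san, 2 with Soshiho-tang and 1 with Yijin-tang, all higher. KCNAB2, a potassium channel subunit with an aldo-keto reductase fold, was called in each, by 1.23 ± 0.11, 0.38 ± 0.05 and 0.28 ± 0.05. Of 14 aldehyde dehydrogenases, 2 were called higher with Okbyeongpung-san, 3 higher and 3 lower with Soshiho-tang, which is near the shares of all genes, and 2 higher with Yijin-tang. The mitochondrial ALDH2 was at 1.19 ± 0.11 with Okbyeongpung-san and 0.37 ± 0.08 with Soshiho-tang, and ALDH1L2 of mitochondrial folate metabolism at 1.08 ± 0.08 with Soshiho-tang and 0.35 ± 0.08 with Yijin-tang. Of 7 genes of prostaglandin synthesis and removal, 2 were called higher with Okbyeongpung-san, 1 higher and 1 lower with Soshiho-tang, again near the shares of all genes, and 1 lower with Yijin-tang. PTGS2, the inducible cyclooxygenase, was lower with Soshiho-tang (-0.67 ± 0.05) and Yijin-tang (-0.33 ± 0.05). The median of this list was 0.28 with Okbyeongpung-san and that of the other aldo-keto reductases -0.0052, against 0.0025 over all genes.

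**Figure D5:**
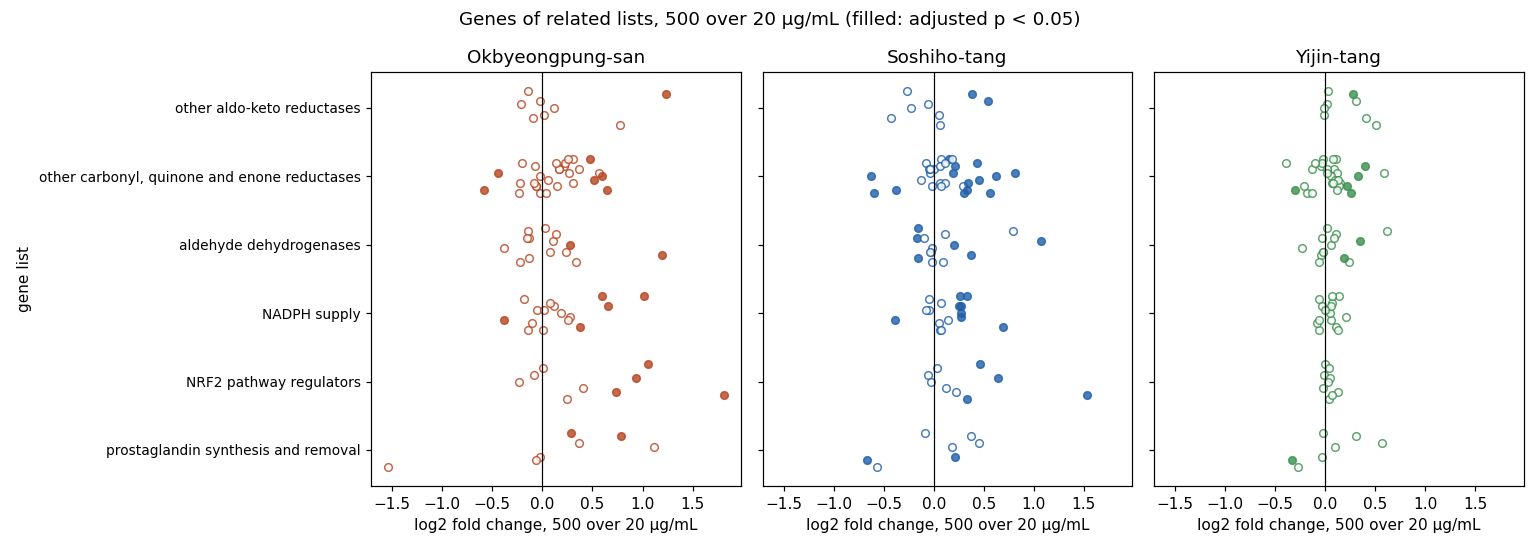
Log2 fold change of 500 over 20 µg/mL (horizontal axes) of the tested genes of 6 related lists (rows), with Okbyeongpung-san, Soshiho-tang and Yijin-tang in separate panels; filled points passed an adjusted p of 0.05, and points are spread vertically for legibility. SQSTM1, among the NRF2 pathway regulators, lies at 1.81 and 1.53 in the panels of Okbyeongpung-san and Soshiho-tang.

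The genes whose group means followed a member most closely were taken by Pearson correlation of log2(CPM + 1) over the 13 groups, among 9788 genes with a mean of at least 10 CPM. Groups of one library set are not independent of each other, so the values are descriptive. For AKR1C1 they were NQO2 (r = 0.977), CLMP (0.961) and SCPEP1 (0.959). For AKR1B1 they were ENGASE (0.965), AP4B1 (0.945) and PRDX1 (0.944), and for CBR1 they were COA6 (0.971), COX17 (0.961) and SDHC (0.954). For PTGR1 they were TIMMDC1 (0.947), NUDT9 (0.945) and MGST1 (0.937), and for AKR1A1 they were PEX5 (0.939), LYSET (0.938) and METRNL (0.93).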

How the data were processed

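Bulk mRNA libraries were read on an MGI sequencer in paired ends of 100 bases from a directional kit, per the labels' protocols. Reads were checked with FastQC 0.11.9, trimmed with Trim Galore 0.6.5, aligned with STAR 2.7.3a to GRCh38 and counted with RSEM 1.3.3, per the submitters' processing notes. The annotation release and the strand setting are not given in the sources used here. The authors deposited expected counts per Ensembl gene: RSEM estimated each count by dividing reads that fit several genes, per the submitters' processing notes. They were rounded to whole numbers before testing. Gene symbols were found for 56558 IDs.

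The 9 members and all lists were chosen with earlier results of these data known. Tests used edgeR 4.0.16 (R 4.3.3, quasi-likelihood F test, TMM scaling, filterByExpr at count and total minimums of 10 and 15), with Benjamini-Hochberg adjustment over all genes at 0.05. Soshiho-tang, Yijin-tang and vehicle libraries shared one fit (16872 genes), Okbyeongpung-san and vehicle another (16643 genes), and the comparison of Okbyeongpung-san with Soshiho-tang its own (17396 genes). The fits recovered known changes on simulated data. The simulation gave all genes the same spread and held no batch and no outlying library. It therefore says nothing of how such features act on the fits. All members are named, and up to 4 called genes per list and extract, by largest change. Same-numbered Soshiho-tang, Yijin-tang and vehicle libraries did not deviate together (r between -0.271 and 0.21), so they were not paired. The numbers of Okbyeongpung-san are batches by label (r = 0.213 between 500 and 20 µg/mL, 0.541 between 100 and 20 µg/mL). Alternatives were DESeq2 1.42.0, its size factors, no filter, a replicate block, smaller and larger fits, and leaving out each library. No 2 replicates were alike within sampling noise. Wortmannin and water extracts, named in the series text, were not analysed here.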

Additional observations from a re-analysis of the deposited data

Results flagged for a closer look

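The change between 500 and 20 µg/mL differed between extracts for 8 values on the log2 scale, by the difference itself in the fit. The change with Soshiho-tang exceeded that with Yijin-tang by 0.66 for AKR1C1, 0.69 for AKR1C2 and 0.57 for the summed AKR1C genes. Without Yijin-tang replicate 3 at 500 µg/mL the last of these was 0.52. The change with Okbyeongpung-san exceeded that with Soshiho-tang by 0.99 for CBR3, 0.87 for AKR1B10, 0.78 for AKR1C1, 0.77 for AKR1C3 and 0.67 for the summed AKR1C genes. The members were proposed with the changes at 500 against 20 µg/mL known, so these differences are not independent of that choice. In the comparison of Okbyeongpung-san with Soshiho-tang, extract and library set cannot be told apart.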

How the results depend on the processing

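No difference that passed the test changed direction under any alternative run; differences that had not passed did so in the cases given last. Among counts of members called, 160 stayed close to the reported value and 16 moved under other settings, and 193 and 19 when a library was left out; the causes were not tested. For Soshiho-tang at 20 µg/mL against vehicle, 0 members were lower with DESeq2, with its size factors, with the replicate block or in a fit of the 2 groups alone, against 1 reported. For Yijin-tang at 500 against 20 µg/mL, a fit of these groups alone called 0 members higher, against 2, and gave 0.22 for the AKR1C sum; it called 308 genes in all, against 951. For Yijin-tang at 20 µg/mL against vehicle, 1 member was higher and 1 lower with no filter, and 1 lower in a fit of these groups alone. With Okbyeongpung-san at 20 µg/mL, 1 was lower than in vehicle with no filter, DESeq2, a fit of these groups alone or the 27-library fit. Between Soshiho-tang and Yijin-tang at 500 µg/mL, 0 were lower with no filter, the replicate block or a fit of these groups alone, and 1 with DESeq2.

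When each library was left out in turn, members called ranged from 0 to 1 higher and 0 to 1 lower for Soshiho-tang at 20 µg/mL against vehicle (AKR1C sum -0.205 to -0.117). For Yijin-tang they ranged from 1 to 3 higher at 500 against 20 µg/mL (sum 0.159 to 0.259) and 0 to 2 at 20 µg/mL against vehicle, and the sum at 500 µg/mL against vehicle from 0.156 to 0.256. They ranged from 0 to 1 lower between Soshiho-tang and Yijin-tang at 500 µg/mL, and from 2 to 4 higher in the difference between Okbyeongpung-san and Soshiho-tang.

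For Okbyeongpung-san at 500 against 20 µg/mL 1716 genes were called, against 2604 with no filter, 523 in a fit of these groups alone and 3082 in the 27-library fit. Between its 20 µg/mL libraries and vehicle there were 372, against 1442 with no filter, 640 with DESeq2, 797 in a fit of these groups alone, 2162 in the 27-library fit and 40 with the replicate block. Soshiho-tang at 100 against 20 µg/mL had 12 genes, against 101 with no filter and 3 in a fit of these groups alone, and Yijin-tang 1, against 67 with no filter and 9 with DESeq2. Okbyeongpung-san at 100 against 20 µg/mL had 0, against 44 with no filter. Soshiho-tang and Yijin-tang differed in 127 genes at 100 µg/mL, against 396 with no filter and 46 in a fit of these groups alone, and 22 at 20 µg/mL, against 252, 55 with DESeq2 and 6 in a fit of these groups alone.

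The replicate block pairs libraries by batch only between concentrations of Okbyeongpung-san. Elsewhere libraries share no more than a number, the vehicle libraries being all of BatchE. There the block made AKR1B1 pass (0.33, adjusted p = 0.0273) and AKR1A1 miss (0.25, adjusted p = 0.0505) at 500 µg/mL of Okbyeongpung-san against vehicle, and AKR1A1 pass between Soshiho-tang and Yijin-tang at 500 µg/mL (0.19, adjusted p = 0.0231). With counts of 108 or more per library, depth did not keep any member from being tested.

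Log2 differences that had not passed, and did not pass after the change, turned sign in 2 cases of single genes and 1 of the AKR1C sum under other settings, and in 83 and 4 cases when a library was left out. With no filter, AKR1A1 with Soshiho-tang at 20 µg/mL was at 0.0073 against vehicle and the AKR1C sum with Yijin-tang at 0.00076, and in the 27-library fit AKR1B10 with Okbyeongpung-san at 20 µg/mL was at -0.0026. The ranges with a library left out were as follows. At 500 against 20 µg/mL, AKR1C3 and CBR3 ranged from -0.0019 to 0.27 and -0.0028 to 0.099 with Soshiho-tang, and from -0.12 to 0.14 and -0.036 to 0.32 with Yijin-tang. At 100 against 20 µg/mL of Soshiho-tang the ranges were -0.085 to 0.023 for AKR1B1, -0.068 to 0.024 for AKR1A1, -0.0094 to 0.058 for PTGR1, -0.053 to 0.080 for AKR1B10 and -0.00067 to 0.14 for CBR3. With Yijin-tang they were -0.041 to 0.10 for AKR1B1, -0.15 to 0.058 for AKR1B10, -0.069 to 0.29 for CBR3, -0.075 to 0.016 for AKR1A1 and -0.19 to 0.011 for AKR1C3. With Okbyeongpung-san they were -0.38 to 0.056 for AKR1B10, -0.083 to 0.051 for AKR1C1, -0.066 to 0.029 for PTGR1, -0.14 to 0.055 for the AKR1C sum, -0.060 to 0.17 for AKR1B1, -0.22 to 0.23 for CBR1, -0.063 to 0.21 for AKR1C2 and -0.23 to 0.28 for CBR3. Leaving out 1 of these Okbyeongpung-san libraries leaves the batches unequal between the concentrations. CBR1 stood at 71.5 CPM at 100 µg/mL and 71.2 CPM at 20 µg/mL in BatchE. In BatchD it stood at 95.6 and 94.6 CPM. The part of the batch in these ranges was not tested.

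Against vehicle, the range at 500 µg/mL was -0.066 to 0.16 for AKR1C3 with Soshiho-tang, and -0.12 to 0.10 for AKR1B1 and -0.16 to 0.097 for AKR1C3 with Yijin-tang. At 20 µg/mL it was -0.039 to 0.055 for AKR1A1 and -0.18 to 0.055 for AKR1C3 with Soshiho-tang. With Yijin-tang at 20 µg/mL it was -0.12 to 0.025 for AKR1C1, -0.13 to 0.057 for AKR1C3, -0.059 to 0.053 for the AKR1C sum, -0.19 to 0.0040 for AKR1B10 and -0.18 to 0.18 for CBR3. With Okbyeongpung-san at 20 µg/mL it was -0.023 to 0.064 for AKR1A1, -0.086 to 0.093 for AKR1B10, -0.040 to 0.10 for AKR1C1, -0.012 to 0.11 for CBR3, -0.16 to 0.23 for CBR1 and -0.020 to 0.17 for AKR1C3. Between Soshiho-tang and Yijin-tang at 500 µg/mL it was -0.017 to 0.25 for AKR1C3, -0.062 to 0.17 for AKR1B1, -0.0022 to 0.073 for CBR1 and -0.059 to 0.16 for CBR3. At 100 µg/mL it was -0.11 to 0.030 for AKR1B1, and at 20 µg/mL -0.068 to 0.073 for AKR1B1 and -0.14 to 0.093 for AKR1C3. The difference of changes ranged from -0.29 to 0.071 for CBR3 and -0.069 to 0.16 for AKR1B1 between Soshiho-tang and Yijin-tang, and from -0.075 to 0.26 for PTGR1 and -0.049 to 0.13 for AKR1C2 between Okbyeongpung-san and Soshiho-tang.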
